A study of Mus musculus with 3 samples.

Results

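The genes described here are 36 components and targets of the unfolded protein response and the integrated stress response, chosen as a fixed list of gene symbols out of 19751 named genes on the array. All 36 were found through the accession of at least 1 probe. They fall into an ATF4 arm of 11 genes, 3 genes of the ATF6 and IRE1 sensors, 15 chaperones and folding enzymes of the endoplasmic reticulum (ER), and 7 genes of ER-associated degradation. Primary cavernous endothelial cells from the penis of C57BL/6 mice were labelled as kept for 48 h in normal glucose (5 mmol), in high glucose (30 mmol), or in high glucose (30 mmol) with an siRNA (200 pmol) against Ninj1, which encodes the adhesion protein ninjurin 1. Each condition was read on 1 single-colour array of total RNA pooled over 3 numbered samples, so the differences below stand without replicates and without a test. The arrays are called NG-labelled, HG-labelled and siRNA-labelled, and signals are given in that order. The labels do not state whether the NG-labelled and HG-labelled cells received a control siRNA.

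Protein folding in the ER is watched by 3 sensors, PERK (encoded by Eif2ak3), IRE1 (Ern1) and ATF6. PERK and its sister kinases phosphorylate the initiation factor eIF2, which lowers general translation while the mRNA of the transcription factor ATF4 is translated more, so ATF4 is set largely by translation and its targets are read as its output. ATF4 raises genes of amino acid supply and feedback genes, whereas cleaved ATF6 and the XBP1 protein made after IRE1 splices the Xbp1 mRNA raise ER chaperones and the degradation machinery. An expression array does not report Xbp1 splicing, eIF2 phosphorylation or ATF6 cleavage, and amino acid shortage can drive the ATF4 arm through another eIF2 kinase without ER stress.

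The identity of the arrays and of the cells limits every direction given here. Ninj1 itself, read by 1 spot per array, had signals of 20413, 16291 and 25539, and after scaling it was 1.34-fold higher on the siRNA-labelled than on the HG-labelled array, against what an siRNA to it would give. Group words in the file names exchange the HG-labelled and siRNA-labelled arrays. Slide positions in the scanner headers, matched to those words, would instead make the NG-labelled array the high-glucose one, the HG-labelled array the siRNA one and the siRNA-labelled array the normal-glucose one. Both of these readings make the HG-labelled array, which had the lowest Ninj1 signal, the siRNA one. Which of the 3 assignments is right still cannot be told from the files, so every group below is named by its label. Both other assignments were computed.

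The cells are called endothelial, yet of 16 endothelial markers Tie1, Erg, Emcn and Sox18 were not well above background on any array. The other 12 had summed unscaled signals of 11796, 11565 and 16049. All 12 fibroblast markers were above background on every array, with sums of 1160440, 1142690 and 978984. Each sum is to be read across the arrays and not against another list's, since different probes are not comparable in level. From HG-labelled to siRNA-labelled, 7 of 12 fibroblast markers were 1.5-fold or more lower and 0 higher, and 5 of 12 endothelial markers were higher and 4 lower. By the same measure smooth muscle and pericyte markers counted 1 higher and 5 lower of 9, macrophage markers 1 and 3 of 11, Schwann and neural markers 2 and 3 of 8, and epithelial markers 1 and 0 of 4. Of the 15625 genes above background on either of these arrays, 14.3% were that much higher and 15.7% lower. The 4 lower endothelial markers, Tek, Vwf, Robo4 and Cldn5, had dim signals of 21.3 to 66.2 on the HG-labelled array. Tek and Cldn5 (lower) and Sox17 (higher) were above background on only 1 of the 2 arrays. The part of these shifts in the results below was not tested, and in bulk RNA fewer cells of a type cannot be told apart from less RNA per cell.

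The promoters of these genes carry different elements, and they are shown first because the share of genes with each element differed between the functional groups. The ER stress response element (ERSE), bound by NF-Y with ATF6 or XBP1, was searched as CCAAT and CCACG with any 9 bases between, and the core of the composite site bound by C/EBP and ATF4 proteins (CARE) as TGATGNAA, both on either strand, in RefSeq windows of 250 bases before to 50 after the annotated start on GRCm38.p6. Of 36 genes 32 had a window, and Atf6, Manf, Hyou1 and Derl1 had none. An ERSE lay in 7 of 13 chaperone genes and in 2 of 6 degradation genes, in none of the 11 ATF4 arm genes, and in 37 of 27025 genes of the table (0.137%). A CARE core lay in 4 of 11 ATF4 arm genes, in 1 of 6 degradation genes, in none of the 13 chaperone genes, and in 4.51% of all genes. The CARE core is short and common, so single matches describe letters and not a bound site. The core of the XBP1 element, TGACGTGG, lay in no member and in 0.714% of all genes.
The upstream stretches with an ERSE are printed with its 5-base ends in capitals, on the strand of the gene, for the chaperones with the best known response and for both degradation genes.
Hspa5, chr2:34772000-34772068, plus strand: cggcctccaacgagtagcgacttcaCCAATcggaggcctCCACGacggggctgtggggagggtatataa
Hsp90b1, chr10:86705521-86705668, minus strand: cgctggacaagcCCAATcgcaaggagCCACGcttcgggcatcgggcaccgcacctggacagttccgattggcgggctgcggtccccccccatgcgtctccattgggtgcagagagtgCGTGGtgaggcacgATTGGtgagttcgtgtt
Calr, chr8:84847050-84847118, minus strand: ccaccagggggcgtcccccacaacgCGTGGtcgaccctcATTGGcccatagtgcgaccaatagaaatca
Canx, chr11:50325775-50325843, minus strand: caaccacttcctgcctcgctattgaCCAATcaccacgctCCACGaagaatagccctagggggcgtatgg
Creld2, chr15:88819495-88819563, plus strand: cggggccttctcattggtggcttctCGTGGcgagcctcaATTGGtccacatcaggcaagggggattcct
Syvn1, chr19:6046507-6046575, plus strand: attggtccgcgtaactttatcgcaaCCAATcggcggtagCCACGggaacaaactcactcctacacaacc
Derl3, chr10:75893217-75893285, plus strand: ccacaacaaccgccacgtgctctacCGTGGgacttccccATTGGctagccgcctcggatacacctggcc
The stretches with a CARE core upstream of the start are printed with the core in capitals.
Atf3, chr1:191183411-191183468, minus strand: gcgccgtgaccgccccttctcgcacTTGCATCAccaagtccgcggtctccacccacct
Chac1, chr2:119351024-119351081, plus strand: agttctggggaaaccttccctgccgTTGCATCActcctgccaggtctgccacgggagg
Asns, chr6:7693210-7693257, minus strand: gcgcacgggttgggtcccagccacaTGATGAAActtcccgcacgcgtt
Herpud1, chr8:94386292-94386349, plus strand: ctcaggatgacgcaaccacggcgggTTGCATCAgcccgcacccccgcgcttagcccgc
The remaining CARE core, that of Trib3, lay at 15 to 22 bases after the start. The remaining chaperone genes with an ERSE were Pdia6 and Dnajc3, and Hsp90b1 carried 2 ERSE copies, at -212 to -194 and at -107 to -89.

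From the HG-labelled to the siRNA-labelled array the ATF4 arm stood higher while the ER chaperones stood close to 0. Differences and folds are siRNA-labelled against HG-labelled, after scaling, until another pair is named. The median log2 difference, on the scale of log2 signal minus each array's 75th percentile, was 0.50 for the 11 ATF4 arm genes, -0.07 for 14 chaperones and 0.34 for 7 degradation genes, against 0.02 for all 15363 genes with a value. In the ATF4 arm 9 genes were above 0 and 2 below, where 50.8% of all genes compared were above. Among chaperones 5 were above and 9 below, and among degradation genes 4 were above and 3 below. The degradation median of 0.34 is the value of Derl3 alone, and against the NG-labelled array that median was 0.06. Of the 35 members above background, 6 were at least 1.5-fold higher on the siRNA-labelled array and none was at least 1.5-fold lower. Of all 15625 genes above background on either array, 14.3% were higher and 15.7% lower by that fold. For the list as a whole the higher count lies near the background. It was unevenly spread: 5 of the 6 were in the ATF4 arm of 11 genes and the sixth was Ern1, with none among the chaperones or degradation genes. At 2-fold 3 members were higher, where 6.52% of all genes were. Just below 1.5-fold were Dnajb9 at 1.49-fold, which passed when arrays were scaled to their median, and Edem1 at 1.47-fold, and the nearest above was Trib3 at 1.69-fold. The arms overlap gene by gene, and the difference between them was not tested. With the group words of the file names the siRNA group has those 6 genes lower than high glucose, and with the header positions it has 0 genes past 1.5-fold either way, since the 2 arrays compared here are then siRNA and normal glucose.

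**Figure D1:**
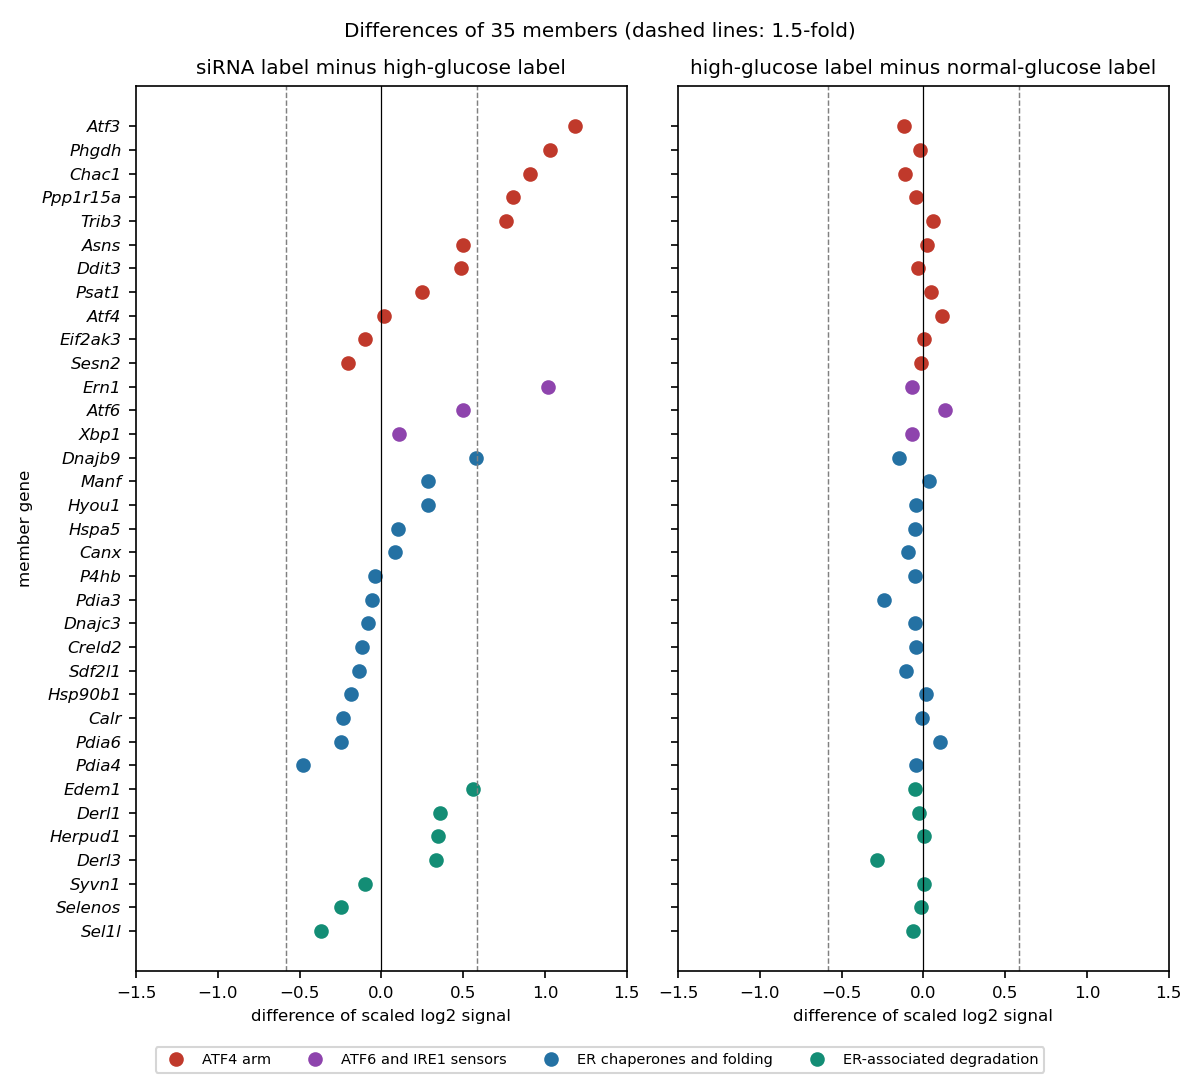
Differences of scaled log2 signal for the 35 members above background, siRNA-labelled minus HG-labelled on the left and HG-labelled minus NG-labelled on the right, 1 point per gene coloured by group, dashed lines at 1.5-fold. On the left 5 ATF4 arm genes and Ern1 lie past the right dashed line and no gene lies past the left one, and on the right every gene lies between the dashed lines.

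Of the upstream components of the ATF4 arm, neither the sensor nor the factor was much higher in mRNA. Eif2ak3, the gene of PERK, had signals of 1985, 1931 and 2107, and after scaling it was 1.07-fold lower on the siRNA-labelled array. Atf4 itself had 166382, 175213 and 207641 on its brighter probe, a scaled log2 difference of 0.02 that ranged from -0.20 to 0.09 over 6 scalings and background corrections, so its sign is not set. Its other probe, with 2748, 2784 and 3039, differed by -0.10. Its mRNA thus had no set direction, and its protein was not measured.

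The transcription factors downstream were higher on the siRNA-labelled array. Atf3, a stress-induced factor that is itself an ATF4 target, had signals of 3267, 2929 and 7802. It was 2.28-fold higher on the siRNA-labelled array, the largest difference of all 35 members compared. The siRNA-labelled array stood alone, since the other arrays lay within 1.08-fold of each other. Ddit3, encoding CHOP, the factor tied to apoptosis under lasting ER stress, had 8444, 8030 and 13189, which made it 1.40-fold higher, short of 1.5-fold. Atf3 is also an immediate early gene induced by many stimuli apart from eIF2 phosphorylation.

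The feedback genes of the pathway gave some of the clearest values. Ppp1r15a encodes GADD34, the phosphatase subunit that reverses eIF2 phosphorylation, and had signals of 17397, 16373 and 33412, 1.74-fold higher on the siRNA-labelled array. Trib3, a pseudokinase that restrains ATF4 and CHOP, had 27144, 27500 and 54532, 1.69-fold higher. Chac1, the glutathione-degrading enzyme induced by ATF4, ATF3 and CHOP together, had 34341, 30872 and 67873, 1.88-fold higher. In each the NG-labelled and HG-labelled arrays were alike and only the siRNA-labelled array was high. Sesn2, encoding sestrin 2, which limits mTORC1 signalling, did not share this: its signals were 5953, 5731 and 5819 and it was 1.15-fold lower after scaling.

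The amino acid enzymes of the arm were higher by unequal amounts. Phgdh, the first enzyme of serine synthesis, had signals of 21439, 20550 and 49058. It was 2.04-fold higher on the siRNA-labelled array, and 2.03-fold on its second probe. Psat1, which catalyses the next step, was higher by only 1.19-fold on the brighter probe, and by 1.03-fold on the other. Asns, asparagine synthetase, had 54910, 54092 and 89618 and was 1.42-fold higher. All 3 enzymes lay above 0, and Phgdh alone passed 1.5-fold.

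**Figure D2:**
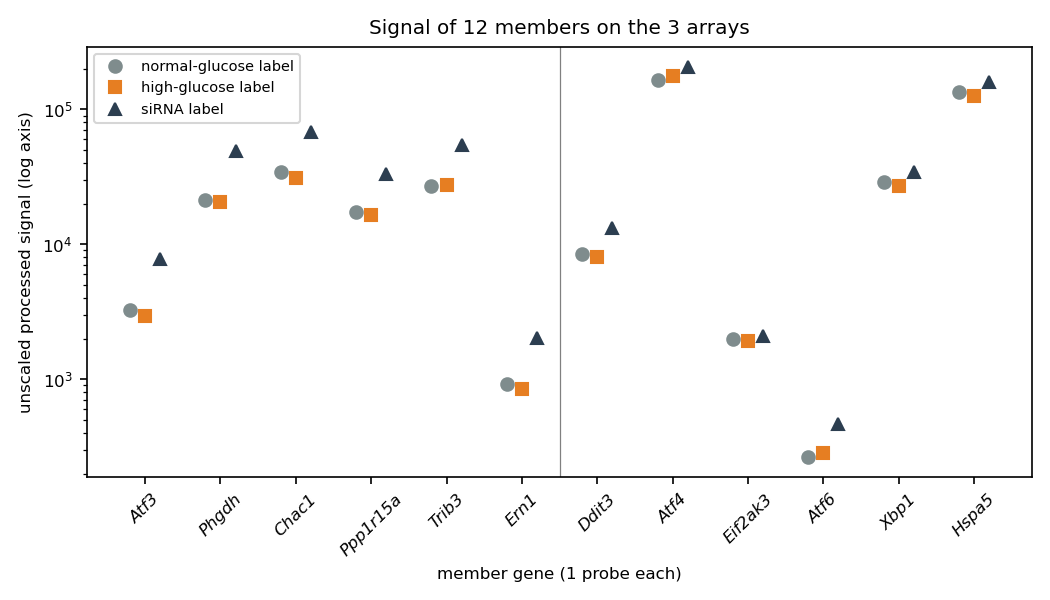
Unscaled processed signal (log axis) of 12 members on the NG-labelled (circles), HG-labelled (squares) and siRNA-labelled (triangles) arrays, 1 probe per gene and 1 point per array. Left of the line are the 6 genes at least 1.5-fold higher on the siRNA-labelled array, and right of it Ddit3, Atf4, Eif2ak3, Atf6, Xbp1 and Hspa5. The siRNA-labelled array is the highest in all 12 before scaling, with a 75th percentile signal of 2024 on that array against 1729 to 1780 on the other arrays, and levels of different probes cannot be compared.

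Of the genes of the other arms, Ern1 and Atf6 stood higher and Xbp1 close to 0. Ern1, encoding IRE1, had signals of 921, 854 and 2028 and was 2.03-fold higher on the siRNA-labelled array. Atf6, with 264, 282 and 467, was 1.42-fold higher. Both were among the dimmer members. Xbp1, the substrate and effector of IRE1, had 29193, 27037 and 34091, a scaled log2 difference of 0.11 that ranged from -0.01 to 0.15 over 6 scalings and background corrections and so has no set sign.

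The main ER chaperones differed little between the arrays. Hspa5, encoding BiP, the chaperone whose release from the sensors starts the response and the usual readout of ER stress, had signals of 134868, 126389 and 158899. Its scaled log2 difference was 0.10 between the siRNA-labelled and HG-labelled arrays, from -0.12 to 0.15 over 6 scalings and background corrections, so its sign is not set. Hsp90b1, encoding GRP94, stood at -0.19, and the lectin chaperones Calr and Canx, for calreticulin and calnexin, at -0.24 and 0.09, of which Canx also changed sign between scalings. These 4 genes each carry an ERSE in the stretches printed above, and none differed by more than 1.18-fold under this scaling. Over the 6 scalings and background corrections Hsp90b1 ran from -0.39 to -0.16 and Calr from -0.40 to -0.22.

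Protein disulfide isomerases, which form and rearrange disulfide bonds in new proteins, included the lowest of all members compared. This was Pdia4, at 13473, 12689 and 10633, or 1.40-fold lower on the siRNA-labelled array. Pdia6 stood at -0.24 on its brighter probe and 1.25-fold lower on the other, Pdia3 at -0.06 and P4hb at -0.04. All 4 were below 0, and none passed 1.5-fold.

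The co-chaperones and secreted folding factors were split. Dnajb9, encoding ERdj4, a co-chaperone of BiP that also represses IRE1, had signals of 6614, 5800 and 10137 and was 1.49-fold higher, 1.32-fold on its second probe. Manf, a secreted factor released on ER stress, stood at 0.28. Hyou1, the nucleotide exchange factor of BiP, also stood at 0.28, but its probe was among the dimmest, with signals of 314, 295 and 421. Dnajc3, the co-chaperone P58IPK, stood at -0.08, Sdf2l1, a partner of ERdj proteins, at -0.14, and Creld2, a secreted ER stress marker, at -0.12. Creld2 is the only member printed many times: its 9 usable spots on each array had geometric means of 46080, 43295 and 46582, with SDs of 0.07, 0.05 and 0.07 on the log2 scale between spots. Dnajb11, encoding ERdj3, did not rise well above background, with signals of 7.38, 6.54 and 10.6, and was left out of all counts.

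Among the genes of ER-associated degradation, which returns misfolded proteins to the cytosol for the proteasome, 4 stood at 1.26-fold to 1.47-fold higher on the siRNA-labelled array and 3 lower. Edem1, a mannosidase-like lectin that picks glycoproteins for disposal, had signals of 3989, 3735 and 6435 and was 1.47-fold higher. Herpud1, a membrane scaffold of the degradation complex, was 1.27-fold higher, and the channel components Derl1 and Derl3 were 1.28-fold and 1.26-fold higher. Derl1's second probe gave 1.24-fold. The ligase gene Syvn1 and its partner Sel1l, which form the core HRD1 complex, stood at -0.10 and -0.37, and Selenos, a selenoprotein that recruits the p97 ATPase, at -0.25. The group divided without any gene reaching 1.5-fold.

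The promoter elements and the differences can be set side by side. The 5 members with a CARE core, Herpud1, Asns, Trib3, Chac1 and Atf3, stood at 0.35 to 1.19 between the siRNA-labelled and HG-labelled arrays. The 9 members with an ERSE stood at -0.24 to 0.34, the highest being Derl3. Herpud1 and Derl3 lay closer to each other than spot noise, and under cyclic loess Herpud1 stood at 0.25 and Derl3 at 0.34, so the ranges of the 2 sets overlapped there, as they did under quantile normalization. Outside the members, 381 compared genes with a CARE core had a median of 0.001, with 67 at least 1.5-fold higher (17.6%) and 69 lower. Another 10 genes with an ERSE had a median of 0.11. For the 12229 compared genes of the promoter table the median was 0.03, with 1775 higher (14.5%) and 1849 lower. The members were chosen with these results known, so their ranges are a description.

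**Figure D3:**
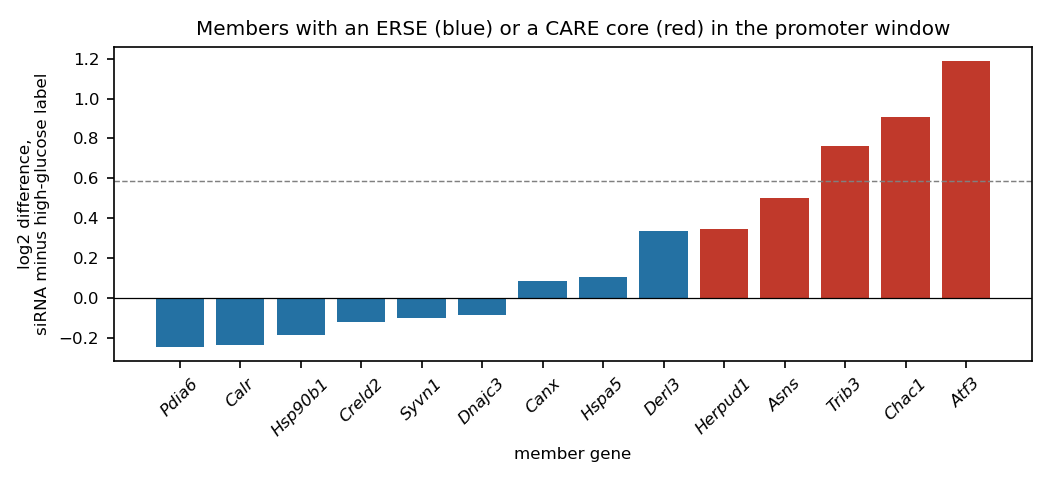
Log2 difference between the siRNA-labelled and HG-labelled arrays for the 9 members with an ERSE (blue) and the 5 with a CARE core (red) in the promoter window, 1 bar per gene starting at 0, dashed line at 1.5-fold. Blue bars run from -0.24 to 0.34 and red bars from 0.35 to 1.19 under this scaling, and the 2 sets overlap under cyclic loess and quantile normalization.

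The other genes of the pathway were listed by known function, between the same arrays. Among 19 further ATF4 targets of amino acid transport and metabolism 8 were at least 1.5-fold higher on the siRNA-labelled array and none lower, with a median of 0.51. Slc7a3, a transporter of arginine and lysine, had signals of 810, 868 and 6356 and was 6.26-fold higher. Slc7a11, the cystine transporter that is also an NRF2 target, was 2.43-fold higher and Aldh1l2, a mitochondrial folate enzyme, 2.20-fold. The median of this list was close to the 0.50 of the ATF4 arm. Of 12 aminoacyl-tRNA synthetases 10 (83.3%) stood above 0, where 51.7% of all genes compared did, with a median of 0.32. Aars, for alanyl-tRNA synthetase, alone passed 1.5-fold at 1.53-fold higher, or 8.3% of the list against 14.3% of all genes. Of 13 genes of the eIF2 kinases, eIF2 and eIF2B, 2 were higher past that fold, near the 14.3% of all genes, and none lower: Ppp1r15b, the constitutive eIF2 phosphatase subunit, at 1.64-fold and Eif2s1, the subunit that is phosphorylated, at 1.60-fold.

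Regulators and stress genes downstream of ATF4 went both ways. Of 16, 5 were at least 1.5-fold higher and 2 lower, where 14.3% and 15.7% of all genes were. The higher ones were led by Vegfa (2.09-fold) and Ddit4 (1.92-fold), both also hypoxia targets, and the stress cytokine Gdf15 (1.77-fold). Stc2, encoding the secreted glycoprotein stanniocalcin 2, was 2.83-fold lower, and Fgf21 was 1.52-fold lower at dim signals of 87.4 and 67.1. The median of the list was 0.09, close to that of all genes.

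The lists of other ER genes differed from each other in direction. Of 22 other ER folding enzymes none was at least 1.5-fold higher, where 14.3% of all genes were. Of the same list 3 (13.6%) were lower, near the 15.7% of all genes. They were the prolyl isomerases Fkbp7 (1.91-fold) and Fkbp14 (1.53-fold) and the co-chaperone Dnajb2 (1.67-fold). Most of the list, 17 of the 22, stood below 0, with a median of -0.18. The share above 0 was 22.7%, against 51.7% of all genes compared. Between the same arrays the fibroblast markers had a median of -1.08, whose part in this was not tested. A list of 32 genes of ER entry, glycosylation and signal peptidase also held genes of ER exit and retrieval. None of the 32 passed 1.5-fold, and they ran from -0.40 to 0.53 around a median of 0.15. Above 0 stood 19 of the 32 (59.4%), near the 51.7% of all genes compared. Of 23 further degradation genes 3 were higher, Ube2j1 (1.75-fold), Ufm1 (1.62-fold) and Ufd1 (just past 1.5-fold), and 1, Erlec1, was 1.79-fold lower, neither count above the shares of 14.3% and 15.7% among all genes.

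**Figure D4:**
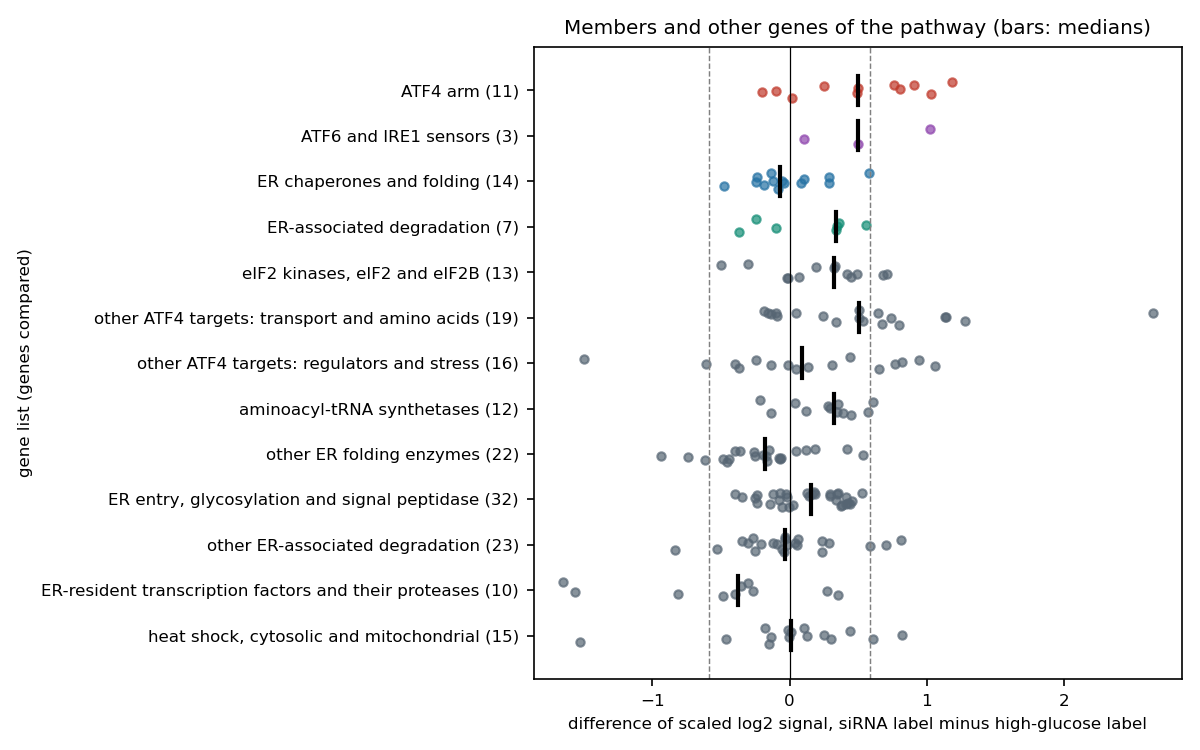
Log2 difference between the siRNA-labelled and HG-labelled arrays for the 4 member groups (coloured) and 9 lists of other pathway genes (grey), 1 point per gene with the number compared in brackets, black bars at the medians and dashed lines at 1.5-fold. The medians of the ATF4 arm (0.50) and of the other ATF4 targets of amino acid supply (0.51) lie farthest right among lists of over 3 genes, and those of the chaperones (-0.07) and other folding enzymes (-0.18) lie left of 0.

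Between the HG-labelled and NG-labelled arrays the members hardly differed. Of 35 members none was at least 1.5-fold higher or lower, where 1.52% and 1.24% of all 15081 genes compared were, so a count of 0 is near the background. The group medians were -0.01 for the ATF4 arm, which changed sign between scalings, -0.05 for the chaperones and -0.03 for the degradation genes, against -0.01 for all genes. The members ran from -0.28 for Derl3, with signals of 1532 and 1225, to 0.13 for Atf6. Pdia3 was next lowest at -0.24 and Atf4 next highest at 0.12. A difference of 2 single spots of a probe has a typical SD of 0.08 on this scale from spot noise alone, with no culture or hybridisation error. Hspa5 stood at -0.05, Ddit3 at -0.03, Trib3 at 0.06 and Asns at 0.02, all within that spread.

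Against the NG-labelled array, the siRNA-labelled array gave 7 of 35 members at least 1.5-fold higher and none lower, where 13.8% and 15.4% of 15581 genes were. This comparison shares the siRNA-labelled array with the first, so it adds no separate measurement of it. Atf3 was 2.10-fold higher, Phgdh 2.01-fold, Ern1 1.94-fold, Trib3 1.77-fold, Chac1 1.74-fold, Ppp1r15a 1.69-fold and Atf6 1.55-fold. With normexp background correction the count was 6, since Atf6 then stood at 0.52 on the log2 scale, short of 1.5-fold. The group medians were 0.52 for the ATF4 arm, -0.14 for the chaperones and 0.06 for the degradation genes. The last is again the value of Derl3, whose signals of 1532, 1225 and 1810 were lowest on the HG-labelled array. At 2-fold 2 members were higher, where 6.35% of all genes were. Pdia4 was the lowest at 1.44-fold lower, and under cyclic loess it passed 1.5-fold at -0.60.

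**Figure D5:**
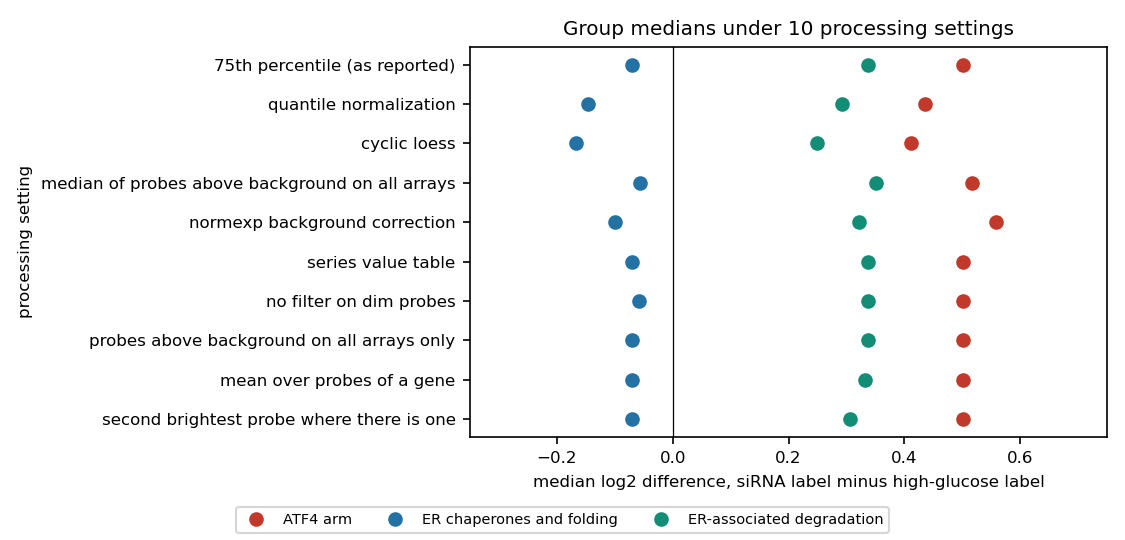
Median log2 difference between the siRNA-labelled and HG-labelled arrays for the ATF4 arm, the chaperones and the degradation genes under 10 processing settings, 1 point per group and setting. The ATF4 arm runs from 0.41 to 0.56, the degradation genes from 0.25 to 0.35 and the chaperones from -0.17 to -0.06, so the order of the 3 groups is the same in each.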

How the data were processed

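Total RNA was labelled with Cy3 and hybridised to 3 arrays of 1 slide. Per the file headers, the authors read spot intensity in Agilent Feature Extraction 11.0.1.1, whose processed signal is linear and background-subtracted. The authors' deposited value table held the same intensity, within 0.1% for 100% of 38999 single-spot probes. Outlier spots were left out (107 to 147 per array), log2 signals were averaged per probe and each array's 75th percentile was subtracted. No spot was saturated, and 67.0% to 70.6% of 39429 probes were well above background. Probes (26055, or 66.1%) were named by matching accessions to RefSeq genes of GRCm38.p6, and the array was annotated on mm9, so no probe coordinates are given. For a gene with several probes above background anywhere, the brightest was used. A gene dim on 1 array of a pair gave a bound, against the higher of its own value and the lowest signal above background, which touched no member. All members read, apart from Creld2, rest on 1 spot per array, and the number of arrays limits the precision.

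A difference of at least 1.5-fold was counted. All members were to be named, with signals for those past that fold, the sensors and the main factors, and up to 3 genes each way per pathway list. The members, lists and thresholds were chosen with earlier results of these data known. Differences were checked on simulated arrays. Tools were Python 3.11.15, pandas 2.3.3, numpy 2.4.6, R 4.3.3 and limma 3.58.1. Alternatives were quantile normalization, cyclic loess, median scaling, normexp with an offset of 50 on median signals (the files used here carry no mean signals), the value table, other filters and probes, a 2-fold threshold and exchanged labels of the high-glucose pair. Assignment by header position was added after seeing the data. Protein sequences were not analysed here.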

Additional observations from a re-analysis of the deposited data

How the results depend on the processing

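With 1 array per group no replicate could be left out, and no paired analysis was possible because each group has 1 array. Over 9 alternatives of scaling, background, filter and probe, the count of members at least 1.5-fold higher was 6 to 7 between the siRNA and high-glucose labels, with none lower (7 with median scaling, which adds Dnajb9). Against the normal-glucose label it was 6 with normexp, which loses Atf6, and 7 otherwise. Cyclic loess moved the medians of that comparison to 0.41 (ATF4 arm), -0.17 (chaperones) and 0.25 (degradation), and those against the normal-glucose label to 0.39 and -0.25 (ATF4 arm, chaperones), with 1 member then lower (Pdia4). Quantile normalization moved the latter pair to 0.42 and -0.24. With a 2-fold threshold 3 members were higher against the high-glucose label (Atf3, Phgdh and Ern1) and 2 against the normal-glucose label, where 6.52% and 6.35% of all genes were. An exchange of the 2 high-glucose arrays, as the file names have it, turns the first comparison round by construction: 0 members higher and 6 lower, with medians of -0.50, 0.0707 and -0.34 for the ATF4 arm, chaperones and degradation genes. It gives the high-glucose label 7 higher members against normal glucose, with medians of 0.52, -0.14 and 0.056, and the siRNA label 0, with medians of -0.013, -0.050 and -0.029. Assignment by slide position in the headers, chosen after seeing the data, gives the siRNA group against the high-glucose group 0 members higher and 0 lower, with medians of -0.013, -0.050 and -0.029. It gives high against normal glucose 0 higher and 7 lower (-0.52, 0.14 and -0.056), and siRNA against normal glucose 0 higher and 6 lower (-0.50, 0.0707 and -0.34). For single members 770 of the recomputed values moved by no more than spot noise and 88 by more, and no member past 1.5-fold changed sign. Many of the 770 could not move. The value table holds the same intensities, and every member compared was above background on all arrays. Hence none of the 105 values moved under that table or under either filter setting. Averaging over probes could change only the 6 members with more than 1 named probe. Most of the 88 came under cyclic loess (40) and quantile normalization (27). Over all genes, 229 higher and 187 lower between the HG-labelled and NG-labelled arrays became 99 and 87 with normexp, 818 and 643 once dim probes were kept, and 85 and 69 with probes above background on all arrays. The dimmest members compared, Atf6 and Hyou1, still lay well above the floor of 11.7 to 16.9 in unscaled signal.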

Other observations

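Genes at the edge of the pathway also differed between the siRNA-labelled and HG-labelled arrays. A list of 10 genes held ER-resident transcription factors, their proteases, the IRE1 form Ern2 and the RNA ligase Rtcb. Of these 10 none was at least 1.5-fold higher and 3, Ern2 among them, were lower, around a median of -0.38. Among all genes 14.3% were higher and 15.7% lower by that fold. Creb3l1, encoding OASIS, an ER-bound factor that drives collagen genes, had signals of 3620, 3666 and 1450 (NG-labelled, HG-labelled and siRNA-labelled) and was 2.96-fold lower on the siRNA-labelled array. Ern2, the epithelial form of IRE1, was 3.14-fold lower and Creb3l3 1.75-fold lower, both at dim signals of 121 and 31.6 on the HG-labelled array. Ern2 stood out on the HG-labelled array alone, since its other signals were 38.3 and 45.1.

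Heat shock genes outside the ER, cytosolic ones and the mitochondrial chaperonins Hspe1 and Hspd1, went both ways around a median of 0.01 over 15 genes. Hsph1, a nucleotide exchange factor of HSP70, was 1.77-fold higher and Hspe1 1.52-fold higher. Hspa1a, the stress-inducible HSP70 gene, is uncertain because it has a near-identical copy, Hspa1b. It had signals of 812, 732 and 296 and was 2.89-fold lower on the siRNA-labelled array.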
